A study of Mus musculus with 40 samples.

Results

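The 9 genes described here are the complement genes C3, C4b, C2, Cfb, Cfd, Cfp, Serping1, Cfi and Cd55, chosen by name as complement components and regulators linked to macular degeneration. All 9 were found among the 54307 gene identifiers of the expression table, and each was followed through all 40 libraries. The libraries came from the choroid and the retina of 20 C57BL/6J mice, and 6 laser spots per eye had been applied to break Bruch's membrane and start choroidal neovascularization. Controls were Tgfbr2 fl/fl littermates without Cre, and the Tgfbr2 ΔEC mice carried Tgfbr2 fl/fl and a tamoxifen-inducible Cre under the endothelial Cdh5 promoter. Mice of both genotypes had been given tamoxifen eye drops as adults, so tamoxifen was shared by all groups. In each genotype, 5 mice received control food and 5 received food with PLX5622, an inhibitor of the receptor CSF1R on which mononuclear phagocytes depend. The choroid sample was the central choroid with its lesions, it was not sorted by cell type, and the mice were of both sexes.

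Complement is a set of plasma and tissue proteins that mark surfaces for uptake or lysis. C1q starts the classical route, in which C4 and C2 are cleaved to form a C3 convertase. In the alternative route factor B binds to C3b, factor D cuts factor B, and properdin, encoded by Cfp, holds the resulting convertase together. Both routes meet at C3. Serping1 encodes the C1 inhibitor, which stops the proteases C1r and C1s, Cfi encodes the protease that inactivates C3b and C4b, and Cd55 encodes a membrane protein that speeds the decay of the convertases. Outside the eye the liver makes most of the plasma pool, adipocytes make factor D and leukocytes make properdin. In the eye, inherited variants in complement genes are linked to age-related macular degeneration.

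The members are protein-coding genes spread over 6 chromosomes (GRCm39, GENCODE annotation). C3 (ENSMUSG00000024164) lies at chr17:57510964-57535155 with 41 exons in its canonical transcript, and C4b (ENSMUSG00000073418) at chr17:34947354-34962912 with 41. Cfb (ENSMUSG00000090231) and C2 (ENSMUSG00000024371) are neighbours on the same chromosome, 18 exons each, in the major histocompatibility region that also holds C4b. Cfp (ENSMUSG00000001128) lies at chrX:20791688-20797794 with 9 exons, and Cfd (ENSMUSG00000061780) at chr10:79726668-79728496 with 5. Of the regulators, Serping1 (ENSMUSG00000023224) lies at chr2:84595705-84620873 with 8 exons, Cfi (ENSMUSG00000058952) at chr3:129629533-129668981 with 14 and Cd55 (ENSMUSG00000026399) at chr1:130366469-130390926 with 10.

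The values are normalized read counts, that is, estimated reads per gene divided by the study's scaling factors, and differences are given on the log2(normalized count + 1) scale with a standard error (SE) or a 95% confidence interval (CI). A gene was called at an adjusted p of 0.05 or lower, with the adjustment over every gene tested. Column sums ran from 24718469 to 25956180 in choroid and from 22256892 to 24507335 in retina. The tissues carried their own markers: the mean log2 level of 10 photoreceptor genes averaged 16.1 to 16.2 in the 4 retina groups and 9.63 to 11.995 in the 4 choroid groups. In the choroids without PLX that photoreceptor score was 2.37 higher in Tgfbr2 ΔEC mice than in controls, with no overlap, and the choroid of mouse 15 (control with PLX, score 12.8) stood apart from its group. Tgfbr2 itself had overlapping values in both genotypes of either tissue, 9836 to 10850 in control and 8729 to 11300 in Tgfbr2 ΔEC choroids without PLX, so the whole-tissue level did not check the deletion in endothelial cells. With PLX the mean log2 level of 16 mononuclear phagocyte markers differed by -2.18 in control choroid and by -4.55 in control retina, without overlap (exact two-sided permutation p = 0.00794 each, the smallest that 5 against 5 mice can give). In such bulk samples, fewer cells of a type and less RNA per cell cannot be told apart.

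Choroid held far more of these transcripts than retina. In control mice without PLX, 8 of the 9 genes were higher in choroid and none was lower, against a background of 34.1% of all tested genes called higher and 32.7% called lower. The 8 genes were also those whose choroid and retina values did not overlap, as in 52.8% of all tested genes. Serping1 had 12520 to 17030 normalized counts in the 5 choroids and 258.9 to 599.3 in the 5 retinas, a log2 difference of 5.34 ± 0.222 (SE, adjusted p = 5.95e-22). The 5 choroids were all far above the 5 retinas. C3 differed by 4.83 ± 0.485 (adjusted p = 3.47e-11), C4b by 3.34 ± 0.334 (adjusted p = 3.27e-11) and C2 by 5.40 ± 0.32 (adjusted p = 2e-17). Cd55 differed by 4.16 ± 0.311 (adjusted p = 1.42e-14) and Cfb by 8.21 ± 0.647 (adjusted p = 6.08e-14), or by 7.44 ± 0.546 when summed with Gm20547, a gene model that shares its reads. Cfd was listed at 0 in these 5 retinas and was present in all 5 choroids at 173.2 to 1982 normalized counts, so no fold is given for it.

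Cfp showed the smallest of the called tissue differences. Its choroid levels were 678.6, 937.8, 1028, 1364 and 728.7, and its retina levels were 500.3, 360.4, 518.5, 535.5 and 329.4, a log2 difference of 1.06 ± 0.258 (adjusted p = 0.000472). The lowest choroid was still above the highest retina. Cfi was the only member that did not pass, with 52.22, 228.6, 15.62, 28.2 and 159.4 in choroid and 37.39, 6.144, 40.24, 37.79 and 40.16 in retina (log2 difference 1.14, 95% CI -0.011 to 2.30, adjusted p = 0.075). The Cfi groups overlapped widely, and its call rested on single mice: it passed without mouse 3 (adjusted p = 0.0105) or without mouse 4 (adjusted p = 0.0349), and the difference was 0.18 without mouse 2.

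**Figure D1:**
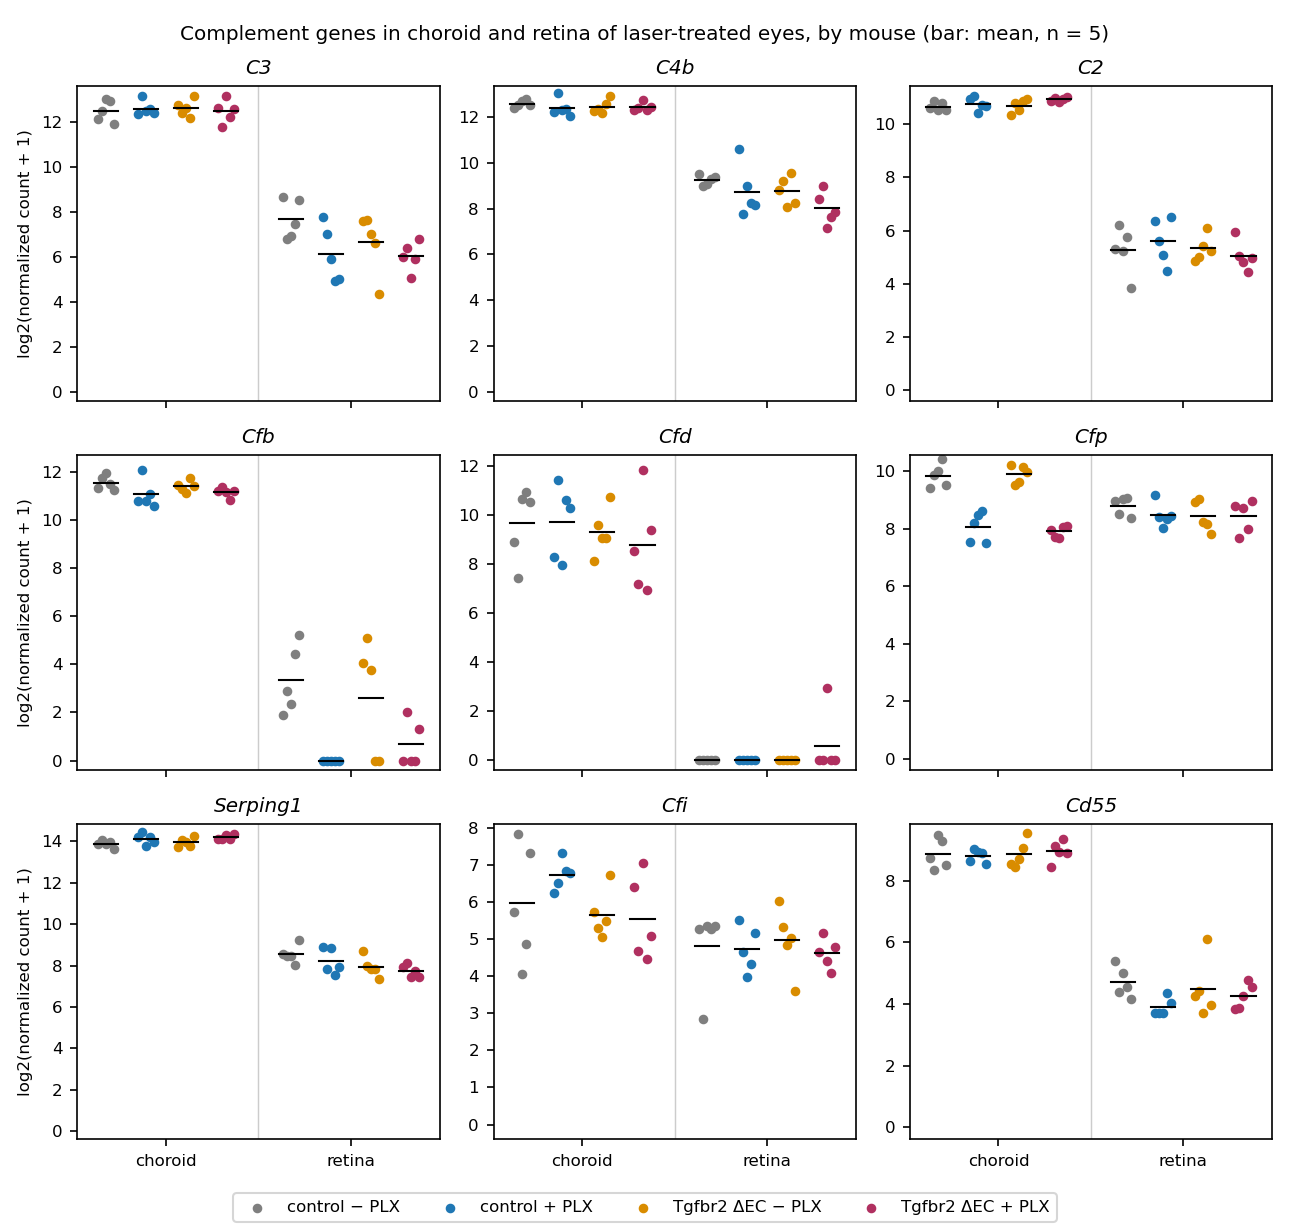
Each panel plots 1 gene, with log2(normalized count + 1) on the vertical axis, 1 point per mouse and a bar at the mean of 5 mice, for the 4 groups of choroid on the left and of retina on the right. The drop of Cfp with PLX is seen in the choroid panels of both genotypes and not in retina, Cfd lies at 0 in 19 of 20 retinas, and Cfb is listed at 0 in all 5 control retinas with PLX.

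To compare genes with each other, levels were divided by the length of each gene's canonical transcript. In control choroid without PLX, Serping1 led with 8250 normalized counts per kb, above every other member without overlap. Cfd (1220 per kb), C3 (1170), C4b (1140) and Cfb (919) followed, and each neighbour in that order overlapped the next. C2 (613 per kb) lay below Cfb without overlap, Cfp (577) overlapped both, and Cd55 (149) and Cfi (44.4) came last. The order in retina was another. There Cfp came first with 273 per kb, overlapping Serping1 at 210 per kb, and both were followed by C4b at 113 and C3 at 45.5. C2 (16.1 per kb), Cfi (14.8), Cd55 (8.07) and Cfb (4.18) lay close to each other with overlapping neighbours.

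PLX changed Cfp in choroid. Among the 9 members, Cfp was the only gene called in the control choroid (background 3.15% of tested genes called lower and 0.601% higher) and the only gene called in the Tgfbr2 ΔEC choroid (background 3.5% lower and 0.559% higher). In control choroids it went from 678.6, 937.8, 1028, 1364 and 728.7 without PLX to 186.6, 294.7, 352.6, 396 and 181.6 with PLX. That is a log2 difference of -1.77 ± 0.22 (SE, adjusted p = 1.55e-05), or 3.41-fold lower, and no control mouse with PLX reached the lowest mouse without it. In Tgfbr2 ΔEC choroids the values were 1177, 732.6, 797.9, 1130 and 1002 without PLX and 247.3, 209.2, 206, 267.4 and 273.7 with PLX. The difference was -1.99 ± 0.22 (adjusted p = 3.26e-06), or 3.97-fold lower, again without overlap. The photoreceptor score also differed between these groups of Tgfbr2 ΔEC choroid (-2.18, without overlap), and with that score as a covariate Cfp was at -2.04 ± 0.271 (adjusted p = 5.37e-05). A long noncoding gene, Gm61816, overlaps Cfp on the opposite strand. Groups without overlap made up 4.21% of tested genes in control and 6.52% in Tgfbr2 ΔEC choroid.

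In retina the same gene was not called in either genotype. Control retinas had 500.3, 360.4, 518.5, 535.5 and 329.4 without PLX and 577.2, 339.8, 257.2, 322.4 and 343.4 with PLX, a log2 difference of -0.31 ± 0.272 (adjusted p = 1). Tgfbr2 ΔEC retinas had 489.3, 525.1, 302.6, 287.5 and 226.1 without and 443.9, 203.3, 419.1, 252.3 and 500.1 with PLX, a difference of -0.02 ± 0.272 (adjusted p = 1). Values with and without PLX overlapped in both genotypes. In control retina the highest value with PLX was that of mouse 11 (577.2), the 4 others lay at 257.2 to 343.4, and without mouse 11 the difference was -0.49 (adjusted p = 0.638). Averaged over the genotypes, the retina difference of Cfp had a 95% CI of -0.564 to 0.236, which does not reach the choroid difference. The test of the difference itself, choroid minus retina over both genotypes, gave -1.72 ± 0.258 (adjusted p = 3.62e-05), and Cfp was the only member called in it (background 0.822% lower and 0.543% higher).

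The contrast with the phagocyte markers was measured in the same libraries. In retina, PLX took the summed level of the 16 markers in control mice from 2539 to 5291 down to 440.5 to 568.8, and 3 of the markers (Adgre1, Mrc1 and Cd163) were at 0 in all 5 mice with PLX. In choroid the sum went from 85780 to 109600 down to 26510 to 56530, with no marker at 0 in all mice. Cfp and these markers therefore moved together in choroid, and in retina the markers fell while Cfp was not called. The part that phagocyte RNA had in the Cfp level of either tissue was not tested. With PLX, Cfp was at 181.6 to 396 normalized counts in the choroids of both genotypes and at 203.3 to 577.2 in the retinas.

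**Figure D2:**
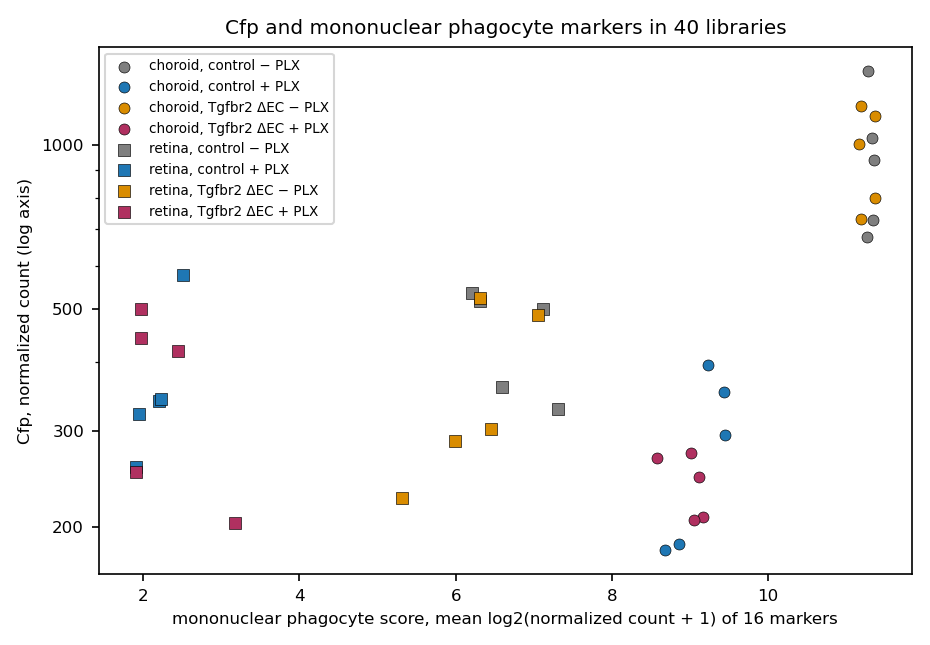
The horizontal axis is the mean log2(normalized count + 1) of 16 mononuclear phagocyte markers, the vertical axis is the normalized count of Cfp on a log axis, and each point is 1 of 40 libraries (circles choroid, squares retina). The 10 choroids with PLX lie below 400 and the 10 without lie above 670, while the retinas with and without PLX overlap in Cfp and do not overlap in the marker score.

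No other member was called for PLX in choroid. Over both genotypes together, a comparison added after the data had been seen, the 8 other choroid differences ranged from -0.37 for Cfb to 0.33 for Cfi, and again only Cfp was called lower (-1.88 ± 0.156, adjusted p = 2.03e-08, background 5.06% lower and 2.07% higher). The 95% CIs bound what could have been missed. C3, where the routes meet, differed by -0.03 (95% CI -0.392 to 0.329), C4b, cleaved in the classical route, by -0.10 (-0.337 to 0.129) and Cd55 by 0.02 (-0.31 to 0.358). Cfi (-0.572 to 1.23) and Cfd (-1.53 to 1.02) had wide intervals. The interval of Cfb ran from -0.682 to -0.054, that of Serping1 from 0.055 to 0.421 and that of C2 from -0.007 to 0.349. Counting Cfp, 3 of the 9 members had an unadjusted p below 0.05 in limma, beside 19.3% of all tested genes.

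Serping1, the C1 inhibitor, had higher choroid means with PLX in both genotypes without passing the test. Control choroids had 15050, 17030, 15050, 15970 and 12520 without PLX and 19140, 22550, 13840, 18650 and 15820 with PLX. Tgfbr2 ΔEC choroids had 13670, 17090, 15970, 14090 and 19870 without and 17550, 17780, 20440, 17960 and 20790 with PLX. The values overlapped in both genotypes, and the averaged difference of 0.24 ± 0.088 had an adjusted p of 0.121, which became 0.0396 without mouse 13. In the same choroids the mean log2 level of 8 endothelial markers was 0.277 higher with PLX in control (without overlap) and 0.218 higher in Tgfbr2 ΔEC mice, and that of 6 pericyte and smooth muscle markers was 0.282 and 0.283 higher (without overlap in Tgfbr2 ΔEC). The mean log2 level of 6 mast cell markers differed by 1.053 in Tgfbr2 ΔEC choroid (exact permutation p = 0.0317). In control choroid it differed by -0.716 (exact permutation p = 0.429). The part of any of these cells in the Serping1 level was not tested.

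The C3, C4b and Cd55 values behind these intervals covered similar ranges on both diets. C3 ran from 3874 to 8324 in control choroids without PLX and from 5291 to 8997 with PLX, and from 4635 to 9039 and 3527 to 9121 in Tgfbr2 ΔEC choroids. C4b ran from 5403 to 7188 and from 4281 to 8564 in control choroids, and from 4652 to 7691 and 5088 to 6787 in Tgfbr2 ΔEC choroids. Cd55 lay between 324 and 744.7 over all 20 choroids. In each of these genes every pair of diet groups overlapped.

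In retina, 7 of the 8 tested members had averaged differences below 0 with PLX and 1, C2, lay at 0.03. Cfd, listed at 0 in 19 of 20 retinas and at 6.77 in the remaining one (mouse 18), was too low to be tested. C3 had 398.3, 111.2, 121.2, 173.9 and 368.1 in control retinas without PLX and 217.4, 129.1, 59.89, 29.52 and 30.93 with PLX. In Tgfbr2 ΔEC retinas it had 193.5, 197.7, 129.4, 97.61 and 19.63 without and 62.51, 82.96, 32.11, 58.69 and 108.6 with PLX. The diets overlapped in both genotypes, and the averaged difference of -1.09 ± 0.427 did not pass (adjusted p = 0.548). C4b averaged -0.64 ± 0.296 (adjusted p = 0.759) and Cd55 -0.52 ± 0.271 (adjusted p = 0.851), and Serping1, Cfi and Cfp lay between -0.27 and -0.16. The median of the 8 differences was -0.393, against 0.003 over all tested genes, and 3 of the 8 had an unadjusted p below 0.05, against 6.28% of all tested genes. In the same retinas, beside the drop of the phagocyte score, the mean log2 level of 11 neutrophil markers differed with PLX by -0.884 in control (exact two-sided permutation p = 0.0238) and by -0.55 in Tgfbr2 ΔEC mice (exact permutation p = 0.0635). Their summed level ran from 53.12 to 313.7 without and from 2.793 to 26.87 with PLX in control retinas. There 4 of the 11 were at 0 in all 5 mice with PLX, and 2 in all 5 mice without it. Other marker scores differed with PLX too. Adipocyte markers differed by 0.297 in control retina (exact permutation p = 0.0317). In Tgfbr2 ΔEC retina, retinal pigment epithelium markers differed by 0.447 (exact permutation p = 0.0159) and Schwann cell markers by -0.629 (exact permutation p = 0.0317). The part of any of these cells in the member levels was not tested. In control retina alone no member was called by limma (background 0.727% called lower and 0.0086% higher), nor in Tgfbr2 ΔEC retina (background 0.512% lower and 0.0043% higher). At an unadjusted p below 0.05 there were 3 of 8 members in control and 1 of 8 in Tgfbr2 ΔEC retina, beside 5.74% and 3.95% of all tested genes. Over both genotypes 1.08% of genes were called lower and 0.0172% higher.

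**Figure D3:**
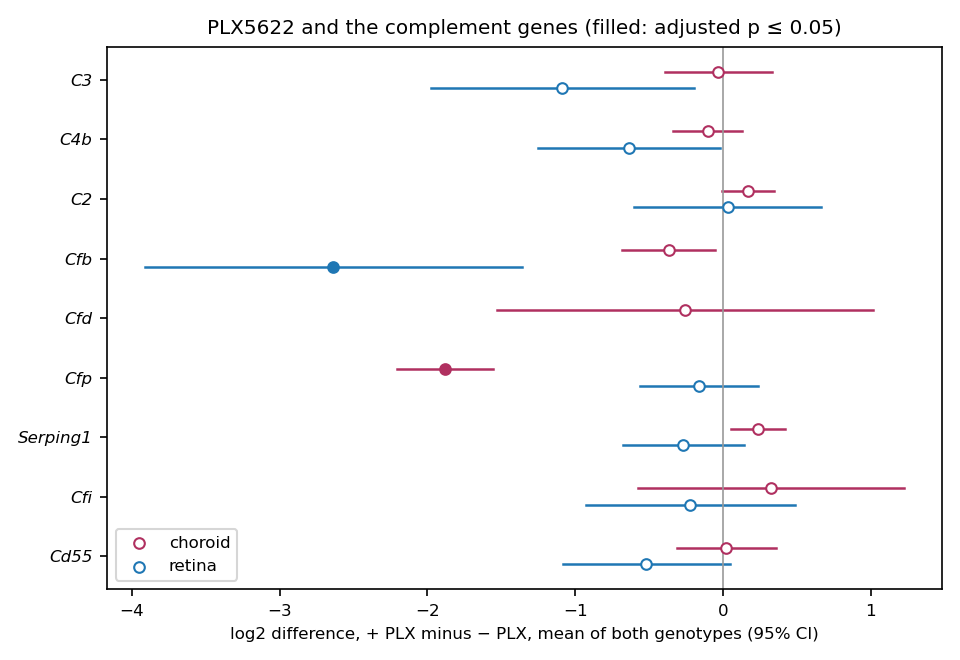
Points give the log2 difference with PLX minus without PLX, averaged over both genotypes, and lines give the 95% CI from the fit of 20 libraries in choroid (red) and in retina (blue), with filled points for an adjusted p of 0.05 or lower. Cfp in choroid stands apart at -1.88, most other intervals include 0, and the Cfb point in retina rests on values at or near 0 and on the constant of 1 added before the log.

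Cfb in retina was the second member called, and its value rested on very few reads. Control retinas without PLX had 2.68, 6.424, 4.112, 20.43 and 36.3 normalized counts, and all 5 control retinas with PLX were listed at 0. Tgfbr2 ΔEC retinas had 15.64, 32.99, 12.8, 0 and 0 without PLX and 0, 3.114, 0, 0 and 1.467 with PLX. The control groups did not overlap, as in 1.46% of tested genes, and the Tgfbr2 ΔEC groups did. Cfb was not called in either genotype alone (adjusted p = 0.101 in control and 1 in Tgfbr2 ΔEC). It was called over both genotypes, with a fitted difference of -2.64 ± 0.612 that depends on the constant added to values of 0 (adjusted p = 0.0329). Without 1 mouse the fitted difference ran from -2.96 to -2.32, and the call was lost for 13 of the 20 mice (highest adjusted p = 0.0814) and with a constant of 5 in place of 1 (adjusted p = 0.0693). The difference of the Cfb change between tissues had an adjusted p of 0.074, which fell below the threshold without mouse 9 (0.0144) or mouse 10 (0.0149), and the difference went from 2.27 to 1.46 when Cfb was summed with Gm20547 (adjusted p = 0.267).

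The Cfb value also depended on a neighbour. C2 and Cfb sit head to tail on the minus strand of chromosome 17, at chr17:35081578-35117241 and chr17:35074852-35081559 in GRCm39, with 18 bases between the annotated end of C2 and the annotated start of Cfb. The annotation holds another gene model over both, Gm20547 (chr17:35075388-35101018), a readthrough that joins C2 exons to Cfb exons. The stretch between the genes is shown for its shortness, and the junction is shown because it is where a read can be told to come from the readthrough. Both are written 5′ to 3′ on the coding strand, and in the junction lower case marks bases of C2 and capitals mark bases of Cfb.
C2 to Cfb stretch, chr17:35081560-35081577: tgtctgtcttatgtcttg
Gm20547 junction: tgacaatccttgcaaAGGTGTGAGCGCAAC
Of the 3844 windows of 50 bases in the canonical Gm20547 transcript, 46 (1.2%) were found in no C2 or Cfb transcript. In turn, 65.3% of the windows of canonical Cfb and 57.6% of those of canonical C2 also occurred in Gm20547. The division of reads among the 3 models was therefore an estimate, and few positions belonged to Gm20547 alone.

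In choroid that division varied between libraries and diets. In control choroids Gm20547 was listed at 0, 0, 187.9, 0 and 0 without PLX and at 488.3, 211.3, 285.3, 489.7 and 286.5 with PLX. In Tgfbr2 ΔEC choroids it was listed at 119.2, 0, 314.4, 0 and 257.2 without and at 265.1, 0, 534.1, 654.4 and 215.2 with PLX. The control groups did not overlap and the Tgfbr2 ΔEC groups did. Its share of the 3 models together was 0.665% ± 1.49 (SD, n = 5) in control choroid without PLX and 8.45% ± 3.34 with PLX. In Tgfbr2 ΔEC choroid it was 3.13% ± 3.35 without and 7.29% ± 5.77 with PLX. In retina the mean shares were 15.1% without and 13.2% with PLX in control mice and 8.71% and 8.44% in Tgfbr2 ΔEC mice, from sums of 23.61 to 97.84 normalized counts. The 3 models summed to 3940 to 5650 normalized counts without PLX and to 3434 to 6769 with PLX in control choroid, with wide overlap.

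Adding Gm20547 to its neighbours, an alternative chosen after the data had been seen, changed what was called. Cfb with Gm20547 in retina no longer passed over both genotypes (-1.66 ± 0.517, adjusted p = 0.239). In Tgfbr2 ΔEC retina the fitted difference was alike with it (-1.919) and without it (-1.917), and in control retina the sum gave -1.40 ± 0.731. The control retinas then had 32.95, 6.424, 4.112, 20.43 and 60.64 without PLX and 15.96, 2.527, 2.578, 10.35 and 4.551 with PLX, which overlapped. In control choroid the difference of -0.48 ± 0.213 for Cfb alone (adjusted p = 0.307) became -0.26 ± 0.187 with Gm20547 (adjusted p = 0.602). The same addition took C2 past the threshold: its averaged choroid difference of 0.17 ± 0.085 (adjusted p = 0.283) became 0.34 ± 0.085 with Gm20547 and passed (adjusted p = 0.0145). C2 with Gm20547 had 1473 to 1850 in control choroids without PLX and 1657 to 2466 with PLX, and 1417 to 2249 and 2001 to 2650 in Tgfbr2 ΔEC choroids, overlapping in both. For PLX in choroid, C2 was called only with the Gm20547 reads added to it. The 3 models summed had means of 4742 without and 4468 with PLX in control and of 4604 and 4617 in Tgfbr2 ΔEC choroid. That sum also holds Cfb, and its difference was not tested. The vascular marker scores given above were higher in the same libraries, and their part was not tested.

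**Figure D4:**
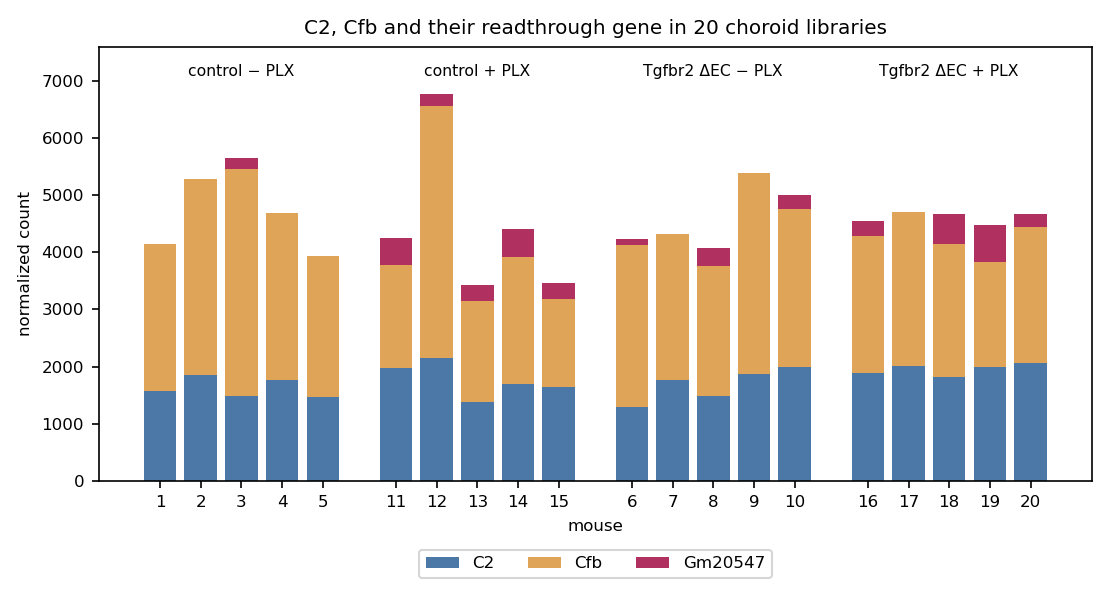
Each bar is 1 of 20 choroid libraries, stacked from 0 as the normalized counts of C2 (blue), Cfb (orange) and the readthrough Gm20547 (red), with mouse numbers below. Gm20547 is visible in 1 of 5 control choroids without PLX and in 5 of 5 with PLX, and mouse 12 has the tallest bar.

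Mouse 12 weighed on Cfb in choroid too. Its control choroid with PLX had 4405 normalized counts of Cfb, and the 4 other mice of its group had 1533 to 2218. Without mouse 12 the control choroid difference of Cfb was -0.74 and passed (adjusted p = 0.00465), and so did the averaged difference (-0.50, adjusted p = 0.00341). The same library also held the highest C3 (8997) and C4b (8564) of its group. Nelfe, on the opposite strand, overlaps Cfb, and Zbtb12 overlaps C2 in the same way, and the strand setting of the counting is not given in the sources used here.

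C4b, the C4 gene with the higher level, has a near copy, C4a. Of the 50-base windows of canonical C4b, 34.8% also occurred in a C4a transcript. The 30 coding bases below are shown because they hold 8 of the differences by which a read can be placed, written 5′ to 3′ from position 3437 of the C4b and 3425 of the C4a coding sequence with the differing bases in capitals.
C4b: accaTgggTtgGacgtcttccAggaTgACG
C4a: accaCgggCtgAacgtcttccGggaGgGGC
In choroid C4a made up 1.39% ± 1.03 of the C4b and C4a counts in control mice without PLX (SD, n = 5), and 0.794% to 1.89% over the means of the 4 groups. In retina the group means were 13.8% to 21.5%. Summing the pair left the tissue difference at 3.14 ± 0.307 (adjusted p = 1.84e-11) and PLX over both genotypes uncalled in choroid (adjusted p = 0.708) and retina (adjusted p = 0.801). The mean C4b level in control retinas without PLX was 614.7 ± 89.1 (SD, n = 5), and with PLX 1 mouse stood at 1537 over 4 at 219.6 to 508. Cd55 shared 10.8% of its windows with Cd55b, which was listed at or near 0 in every library (highest 1.259), and Gm16083 overlaps it on the opposite strand.

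Cfd, which encodes factor D, varied more between mice than any other member. In control choroids it had 482.5, 173.2, 1604, 1982 and 1486 without PLX and 308.5, 2734, 246.4, 1592 and 1270 with PLX. In Tgfbr2 ΔEC choroids it had 279.1, 771.1, 538.2, 537.4 and 1691 without and 374.6, 144.1, 3698, 124.1 and 665.6 with PLX. High and low mice occurred in all 4 groups, and the highest choroid was 29.8-fold above the lowest. Its SD within groups was 1.53 on the log2 scale, larger than that of 99.7% of the genes within 2-fold of its level, whose median was 0.199.

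The genes whose levels most resembled Cfd over the 20 choroids, after subtracting the group means, were Adipoq (r = 0.971), Retn (r = 0.967) and Car3 (r = 0.944). Adipoq and Retn encode the adipocyte hormones adiponectin and resistin, and Car3 encodes a carbonic anhydrase abundant in fat and muscle. The mean log2 level of 8 adipocyte markers, which include Adipoq and Retn but not Cfd, ranged from 5.81 to 9.09 over the choroids. It was highest in mouse 18, as was Cfd. With that score as a covariate, added after the data had been seen, the averaged PLX difference of Cfd was -0.11 ± 0.142, against -0.26 ± 0.612 without it. The gene stayed uncalled (adjusted p = 0.763). The smaller SE follows from the likeness of Cfd to markers in the score and is not a separate result.

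**Figure D5:**
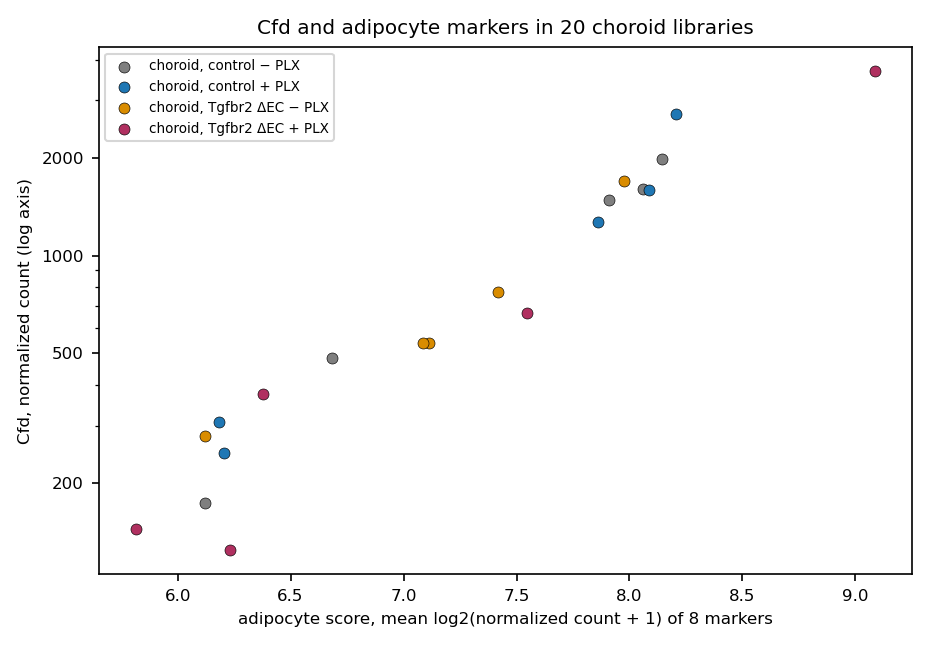
The horizontal axis is the mean log2(normalized count + 1) of 8 adipocyte markers and the vertical axis is the normalized count of Cfd on a log axis, with 1 point for each of 20 choroid libraries, coloured by group. Cfd climbs with the score in all 4 groups, from 124.1 to 3698 normalized counts.

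The other members had nearest patterns of their own over the 20 choroids, given as descriptions because the libraries share depth and tissue composition. Serping1 lay nearest to C1ra (r = 0.939), which encodes a protease its product inhibits, C4b to Cnp (r = 0.914), a gene of myelinating glia, and C2 to Cdk2 (r = 0.9). C3 lay nearest to Mrap (r = 0.85), Cfb to Ciz1 (r = 0.845), Cd55 to Igsf1 (r = 0.856) and Cfp to Bglap3 (r = 0.836). Cfi lay nearest to Rpl34-ps2 (r = 0.9) and Rpl34-ps1 (r = 0.856), both ribosomal protein pseudogenes, and was itself at a level of 15.62 to 228.6 normalized counts. Among the members themselves the closest pairs in choroid were C2 with Serping1 (r = 0.76), C4b with Cfb (r = 0.722) and C3 with C4b (r = 0.638), and Cfp showed r between -0.121 and 0.46 with every other member. In retina the closest pair was C4b with Serping1 (r = 0.629).

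Deletion of endothelial Tgfbr2 left no called difference in any member. Of 51 differences fitted, that is, genotype without PLX, genotype with PLX and the genotype by PLX interaction in each tissue, 0 passed in limma, 1 had an unadjusted p below 0.05 and the lowest adjusted p was 0.879. Over all tested genes, an unadjusted p below 0.05 was found for 9.25% (without PLX), 3.76% (with PLX) and 6.57% (interaction) in choroid and for 3.26%, 2.71% and 2.44% in retina, with 0.00423% of genes called in choroid on either diet, and 0 in retina and in both interactions. In choroid without PLX the 9 differences ran from -0.38 (Cfd) to 0.13 (C3), and with PLX from -1.20 (Cfi) to 0.16 (C2). The Cfi difference came from control choroids with 74.39, 90.08, 160.5, 113.3 and 108.9 and Tgfbr2 ΔEC choroids with 83.2, 24.54, 132.4, 21.24 and 33.13, which overlapped (adjusted p = 1).

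In retina without PLX the genotype differences ran from -1.02 (C3) to 0.15 (Cfi). Serping1 had the single unadjusted p below 0.05, with 369.4, 345.3, 355.7, 258.9 and 599.3 in control and 421.3, 252.4, 224.4, 228.1 and 164.3 in Tgfbr2 ΔEC retinas. The difference of -0.59 ± 0.279 had an adjusted p of 0.985, and the groups overlapped. For Cfp, the one member that PLX changed in both genotypes of choroid, the genotype difference was 0.05 (95% CI -0.408 to 0.512) without PLX and -0.17 (-0.627 to 0.292) with PLX. The interaction ran from -0.90 (Cfi) to 0.23 (Cfb) in choroid and from -0.64 (C2) to 1.44 (Cfb) in retina, where the Cfb value was -0.52 ± 1.034 when summed with Gm20547. No member was called in any of these 6 comparisons without any 1 mouse, including mouse 15, whose omission raised the count of all genes called for genotype in choroid without PLX from 1 to 411.

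The rest of the complement pathway was counted from lists of other members of each step. Of 14 tested genes of classical and lectin initiation, 4 fell with PLX in control choroid and none rose, and the same counts held in Tgfbr2 ΔEC choroid, beside 3.15% and 3.5% of all tested genes called lower. They were the 3 chains of C1q and, named after its value was seen, Fcna, a ficolin of macrophages. C1qa, a chain of the recognition protein of the classical route, had a mean of 5383 in control choroids without PLX and 566.8 with PLX, a log2 difference of -3.33 ± 0.208 (adjusted p = 5.24e-09). In control retina the mean went from 385 to 1.913, a difference of -7.36 ± 0.557 (adjusted p = 4.3e-08). C1ra and, likewise named after its value was seen, C1s1, the proteases bound to C1q, were not called in choroid (0.19 ± 0.125 and 0.06 ± 0.117 in control).

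Of the 9 receptors tested, 6 fell with PLX in each genotype and each tissue, and none rose, where 3.15% (control) and 3.5% (Tgfbr2 ΔEC) of all tested genes fell in choroid and 0.727% and 0.512% in retina. C3ar1, the receptor for C3a, went from a mean of 2421 to 617.2 in control choroid (-2.01 ± 0.179, adjusted p = 1.97e-07) and from 69.14 to a value listed at 0 in control retina. Itgam, a chain of complement receptor 3, went from 2666 to 696.2 in control choroid (-1.96 ± 0.168, adjusted p = 1.34e-07), and C5ar1, the receptor for C5a, from 991.8 to 198.7 (-2.35 ± 0.198, adjusted p = 1.14e-07). The phagocyte marker scores differed in the same libraries, and the part of phagocyte RNA in the receptor levels was not tested. In the terminal pathway 1 of 4 tested genes fell in either genotype of choroid (C6, a part of the membrane attack complex), and 0 of 3 were called in retina by limma, where 2 had an unadjusted p below 0.05 in Tgfbr2 ΔEC mice, both with higher values with PLX (median of the 3 differences 1.40), beside 3.95% of all tested genes. Among the other regulators 1 of 15 fell in control choroid (Vsig4, a macrophage receptor for C3b) and 2 of 15 in Tgfbr2 ΔEC choroid, with 0 of 12 in retina by limma, where 1 had an unadjusted p below 0.05 in control, beside 5.74% of all tested genes. In choroid the regulators at an unadjusted p below 0.05 were 2 of 15 in control (13.8% of all tested genes) and 6 of 15 in Tgfbr2 ΔEC mice (15.4%). Over both genotypes in choroid, 4 initiation genes fell and 1 rose (Masp1, a protease of the lectin route, 0.42 ± 0.116, adjusted p = 0.0311), and 8 of 9 receptors, 1 terminal gene and 1 regulator fell, beside 5.06% of all tested genes called lower and 2.07% higher.

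For PLX in control choroid the median log2 difference was -1.78 over the receptors, 0.05 over initiation genes, -0.19 over terminal genes, 0.17 over the other regulators and 0.02 over the 9 members, beside 0.02 over all tested genes. In Tgfbr2 ΔEC choroid the same medians were -1.31, 0.03, -0.46, -0.05 and -0.12, beside -0.01 over all tested genes.

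Between the tissues of control mice without PLX, 11 of 13 initiation genes, 8 of 9 receptors, 3 of 5 terminal genes and 6 of 14 other regulators were called higher in choroid, and 1 terminal gene and 5 other regulators were called lower, beside 34.1% of all tested genes called higher and 32.7% lower. The median differences were 3.85, 4.94, 1.45 and -0.08, beside 4.83 over the 9 members and -0.01 over all tested genes.

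The contrast of PLX between tissues ran the other way from Cfp for the 3 chains of C1q and for 4 of the 9 receptors, beside 0.543% of all tested genes called higher and 0.822% lower. Choroid minus retina, the PLX difference was 3.93 ± 0.432 for C1qa (adjusted p = 6.78e-08), 3.40 ± 0.357 for C3ar1 (adjusted p = 2.78e-08) and 3.96 ± 0.479 for Itgam (adjusted p = 5.32e-07), which means that these fell further in retina. In control retina with PLX, C1qa and C3ar1 had few or no reads. The sizes of their contrasts therefore depend on the constant of 1 added before the log. Fcna, Vsig4 and C6 had means of 1.255 or lower in all 4 retina groups, so their contrast between tissues would restate the choroid difference and is not given.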

How the data were processed

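RNA from choroid and retina of 20 mice was sequenced as stranded poly-A libraries (5 mice per group, 8 groups, 40 libraries). The deposited values are a normalized signal per gene: per the labels and the study's methods, the authors estimated reads with Salmon 1.10.1 on GRCm39 and scaled them with DESeq2 1.36.0, so they are not whole counts. The methods say that the tissues were analysed apart, but the deposited table was scaled over both: over 15800 genes above 0 everywhere, the median ratio to the geometric mean of the 40 libraries was 1.008 in every library, and it varied (0.9831 to 1.036) when each tissue was taken alone. Of 54307 identifiers, 53700 were matched to the reference annotation for names and positions. The sum of a column follows this scaling, and approximate totals recovered from low values, 21720522 to 28174821 reads in choroid and 20940403 to 30421581 in retina, give the depth behind the values.

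Genes whose mean reached 1 were analysed on the log2(value + 1) scale. The trended moderated model of limma (version 3.58.1, R 4.3.3) was fitted over 20 libraries within a tissue or 40 for tissue contrasts, with Benjamini-Hochberg adjustment over all genes tested. The sex and neuronal covariates of the study were not in these fits. Choroid and retina of a mouse share its number in the library names. Deviations from group means correlated at -0.158 to 0.289 over genes between the tissues of a mouse (above 0 in 17 of 20), and the mouse as block was an alternative. An exact permutation test (two-sided) compared the marker scores. Named genes were the 9 members, at most the 3 lowest p-values in each direction of each pathway list, and the 3 genes most alike each member (mean of at least 10, group means subtracted), with shared-locus genes. Members and lists were chosen with earlier results of these data known. Shared windows were counted over transcripts of GENCODE vM39, a later release than the authors' vM29. Alternatives covered the constant added, the filter, scaling, robust variance, covariates, fits of 10 libraries and the omission of each mouse. The code was tested on simulated data.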

Additional observations from a re-analysis of the deposited data

Results flagged for a closer look

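In 12 of 68 groups of 5 mice, 1 library stood apart from the other 4 by Dixon's criterion (gap over range above 0.71). The criterion was applied to values that were not logged, and the groups share libraries, so no chance rate is set beside this count. For Cfd in the retina of mouse 18 the other 4 values were all 0, which meets the criterion by construction. Mouse 12 was the high library in 3 of them, all in control choroid with PLX: C3 at 8997 over 5291 to 6119, C4b at 8564 over 4281 to 5291, and Cfb at 4405 over 1533 to 2218. Mouse 18, a Tgfbr2 ΔEC mouse with PLX, was high in choroid for C4b (6787 over 5088 to 5501) and for Cfd (3698 over 124.1 to 665.6), and its retina was the only one with Cfd above 0 (6.77). Mouse 11, a control with PLX, was high in retina for C4b (1537 over 219.6 to 508) and for Cfp (577.2 over 257.2 to 343.4). The others were Cfi in the choroid of mouse 10 (104.4 over 32.03 to 52.25), Cfi in the retina of mouse 2 (6.144, below 37.39 to 40.24), C2 in the retina of mouse 16 (60.89 over 20.75 to 32.12) and Cd55 in the retina of mouse 9 (68.21 over 12.2 to 20.67).

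The PLX difference of Cfp differed between the tissues, at -1.72 on the log2 scale for choroid minus retina over both genotypes (adjusted p = 3.62e-05 in limma, 10 mice per diet). In choroid every mouse with PLX was below every mouse without it.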

How the results depend on the processing

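Cfp kept its call for PLX in choroid under all 29 alternatives in each genotype (-1.91 to -1.63 in control, -2.08 to -1.91 in Tgfbr2 ΔEC, highest adjusted p = 0.0016) and its difference between tissues under all 28 (-1.84 to -1.56). With the mouse as a replicate block the counts of members called stayed at 8 for tissue and 1 for PLX by tissue, Cfp at -1.72 (adjusted p = 0.000775), and the pairing changed no other call. The count of members called changed in 6 of 14 comparisons. In control retina it was 1 (Cfb) in place of 0 when the 10 libraries were fitted alone. Over both genotypes in retina it was 0 in place of 1 with a constant of 5 and with shared loci summed. It was also 0 with a minimum mean of 10, which leaves Cfb (retina mean 6.798) out of the test. In choroid it was 2 in place of 1 with shared loci summed. Leaving out 1 mouse gave 1 to 2 in control choroid, 1 to 2 over both genotypes in choroid, 0 to 1 over both genotypes in retina, 8 to 9 for tissue and 1 to 2 for PLX by tissue. Of 120 member differences, 39 changed sign under at least 1 alternative, none of them called. Among those given above, the Cfb interaction in retina went from 1.44 to -0.52 with shared loci summed. C2 over both genotypes in retina went to -0.06 with the neural retina score as covariate, to -0.11 with shared loci summed and to -0.15 to 0.17 without 1 mouse. In choroid Cd55 went to -0.034 and Cfd to 0.102 with that covariate, Cd55 ranged from -0.042 to 0.109 and C3 from -0.117 to 0.054 without 1 mouse. Cfp in Tgfbr2 ΔEC retina went to 0.022 with the sex score and ranged from -0.17 to 0.17 without 1 mouse. Over all genes, PLX in Tgfbr2 ΔEC choroid called 958, or 537 with the neural retina score, PLX in control choroid 885, or 572 in the fit of 10 libraries, and genotype in choroid without PLX 1, or 303 in that fit. A minimum mean of 10 took control retina from 171 to 104 and both genotypes from 254 to 154, and PLX by tissue went from 332 to 620 without mouse 15. The cause was not tested. Cfb in retina was listed at 0 in 10 of 20 libraries, where a level of a few reads could not be told from 0.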
